A study of Cicer arietinum with 8 samples.

Results

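In chickpea seedlings, 133 annotated loci had messenger RNA levels at least 2-fold lower under desiccation in both root and shoot. They were chosen from 27248 annotated loci by the change in log2(FPKM + 1) between the desiccated and the control library of each tissue, which had to be -1 or lower in both. FPKM scales the sequenced fragments of a locus by its exon length and by the mapped fragments of the library. Loci with a change of 1 or higher in both tissues under salinity, or in both under cold, were to be left out, and 0 loci met that condition. The lower levels under desiccation are therefore a property of the choice and are given as a description, whereas the salinity and cold libraries removed no locus. The 133 loci made up 12.2% of the 1086 annotated loci that were as low in desiccated root, and 8.26% of the 1610 that were as low in desiccated shoot.

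Seedlings of the chickpea (Cicer arietinum) genotype ICC4958 were treated at 10 days of age for 5 h. The stressed groups were left on folded tissue paper (desiccation), in 150 mM NaCl (salinity) or in water at 4 °C (cold), and the controls in water. Root and shoot were sequenced apart, with 1 library for each of the 4 conditions in each tissue, so that no condition has a replicate and no fold against a control carries an error or a p-value. The labels do not say how many seedlings entered a library, or whether root and shoot came from the same seedlings. Loci are called by the IDs of the deposited files, since 0 of 27571 annotated IDs matched the RefSeq gene table used here. For that reason no function is given to any locus, and the tissues were not checked against marker genes.

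Loss of water lowers cell turgor in a seedling, which slows cell expansion before photosynthesis or respiration is affected. Abscisic acid made under water deficit closes stomata and switches many genes, and salt in the root medium adds an ionic load to a similar osmotic one. Transcripts known to decline early under water deficit in plants include many of cell wall loosening, growth hormone response, aquaporins and photosynthesis. Cold also slows growth and water uptake by roots.

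The depth of the libraries is known only roughly. Values under 0.3 FPKM were taken to move in steps of 1 fragment. The size of these steps put the other 7 libraries at 1.21 to 1.298 times the depth of the root control. Only 7.73% to 14.02% of the loci used for this lay within 1% of the step found, so the ratios are weakly founded. The FPKM of all loci summed to between 1194210 and 1467260 in the root libraries and to between 2457120 and 3343300 in the shoot libraries. Annotated loci alone summed to between 621289 and 710943 FPKM over the 8 libraries. Among the 14396 annotated loci with at least 1 FPKM in both controls, which are the loci that could have met the rule and serve as the background, the median change lay between -0.04 and 0.04 in the 6 comparisons of a stress with its control.

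The 133 loci were well expressed in the controls and covered a wide range. Their median was 9.24 FPKM in desiccated root and 31.6 FPKM in control root, and 6.43 FPKM in desiccated shoot and 24.1 FPKM in control shoot. Under desiccation 21 of them stood under 1 FPKM in root and 20 in shoot, against 0 in either control, as the rule required. Together they held 0.712% of the annotated FPKM in desiccated root and 2.42% in control root. In shoot the shares were 0.567% under desiccation and 1.83% in the control. A single locus, with the IDs Ca_04529 and Ca_04530, weighed heavily there. It had 1028 of the 4034 FPKM of the 133 loci in desiccated shoot, and 2133 of the 11927.5 FPKM in control shoot. In bulk tissue a smaller number of cells of 1 type and less messenger RNA per cell cannot be told apart.

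**Figure D1:**
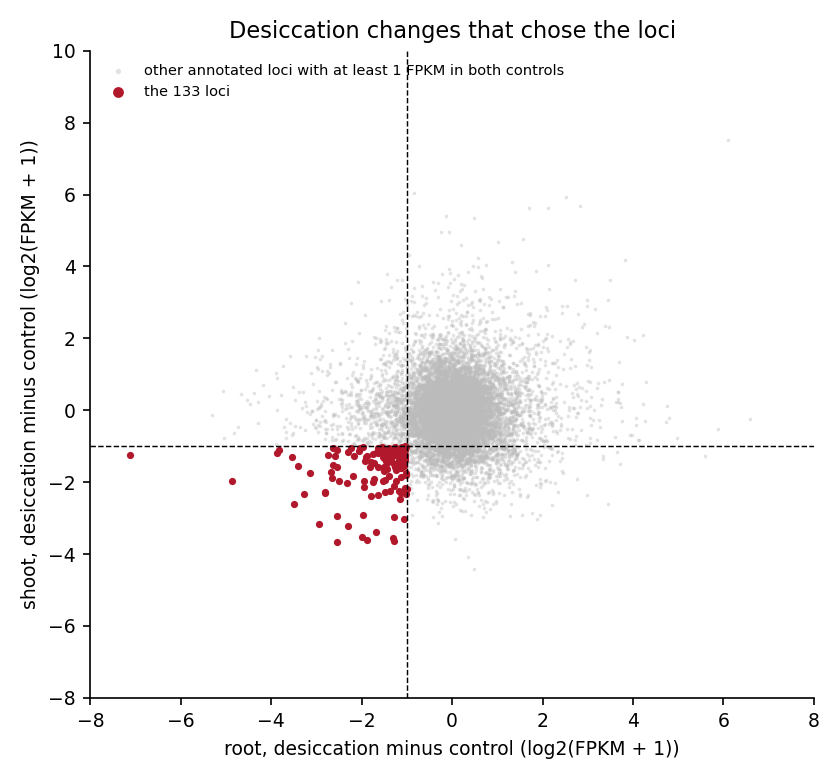
Change under desiccation, as desiccation minus control in log2(FPKM + 1), in root (x axis) and shoot (y axis) for the 133 loci (red) and the other annotated loci with at least 1 FPKM in both controls (grey). Dashed lines mark the threshold of -1 in each tissue. Most red points lie within 1 unit of a dashed line, and some reach below -3 in 1 tissue.

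The rule set the same limit of -1 in both tissues, and the changes that met it are described here. The median change was -1.47 in root, with quartiles of -1.97 and -1.18, and -1.47 in shoot, with quartiles of -1.97 and -1.19. Of the 14396 background loci, 6.5% were at least 2-fold lower in desiccated root, 9.73% in desiccated shoot and 0.924% in both, the last being the 133 loci themselves. At least 4-fold lower were 32 of the 133 in root, 31 in shoot and 10 in both. With other pseudocounts the number of loci changed: 51 of the 133 loci met the rule with a pseudocount of 5, and 281 loci met it with a pseudocount of 0.1. At the edge of the rule stood Ca_01715, with a change of -1.001 in root and -2.19 in shoot, and Ca_07798, with -1.05 and -1.01. Just outside it were Ca_15755, with -1.04 in root and -0.999 in shoot, and Ca_02868, with -1.43 in root and -0.993 in shoot.

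The locus with the lowest values under desiccation relative to the control was Ca_10167. In root it had 0.3002 FPKM in desiccated, 7.36 in salt-stressed and 0.461 in cold root, against 181 FPKM in control root. In shoot it had 1.27 FPKM in desiccated, 1.42 in salt-stressed and 5.17 in cold shoot, against 4.41 FPKM in control shoot. It was thus high in a single library, control root, and near its control level in cold shoot. Ca_04206 had the same shape in root, with 0.775 FPKM in desiccated, 4.65 in salt-stressed and 1.43 in cold root, against 50.7 FPKM in control root. In shoot it had 0.293 FPKM in desiccated, 0.457 in salt-stressed and 1.84 in cold shoot, against 4.04 FPKM in control shoot. Both loci were higher in salt-stressed root than in desiccated or cold root, though far below control root.

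Some of the lowest loci stayed closer to the control under salinity. Ca_10503 had 4.46 FPKM in desiccated, 19.4 in salt-stressed and 2.79 in cold root, against 40.9 FPKM in control root. In shoot it had 0.267 FPKM in desiccated, 12.3 in salt-stressed and 4.87 in cold shoot, against 10.4 FPKM in control shoot, so that only the desiccated shoot library was below 1 FPKM. Ca_15805 followed the same order, with 2.197 FPKM in desiccated, 9.61 in salt-stressed and 1.002 in cold root, against 14.8 FPKM in control root. In shoot Ca_15805 had 0.462 FPKM in desiccated, 17.97 in salt-stressed and 3.65 in cold shoot, against 12.6 FPKM in control shoot. For both loci salinity was the highest of the 3 stresses in each tissue, and cold was lower than salinity by 2.43 and 2.41 (log2) in root. Ca_07145 differed between the tissues in this respect. It had 4.53 FPKM in desiccated, 54.2 in salt-stressed and 8.11 in cold root, against 31.4 FPKM in control root, and 1.498 FPKM in desiccated, 4.803 in salt-stressed and 27.6 in cold shoot, against 30.7 FPKM in control shoot. Salt-stressed root was above its control for this locus, while salt-stressed shoot was between the desiccated and the cold one and below its control.

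The remaining loci of the 8 with the lowest mean change differed mainly in which tissue held most of their transcript. Ca_04974 had 0.9904 FPKM in desiccated, 1.08 in salt-stressed and 0.937 in cold root, against 21.6 FPKM in control root, so all 3 stressed root libraries were near 1 FPKM. In shoot it had 6.79 FPKM in desiccated, 19.04 in salt-stressed and 47.4 in cold shoot, against 46.5 FPKM in control shoot, with cold shoot at the control level. Ca_02867 had most of its transcript in shoot, at 35.7 FPKM in desiccated, 58.03 in salt-stressed and 147 in cold shoot, against 184 FPKM in control shoot. In root it had 0.526 FPKM in desiccated, 1.25 in salt-stressed and 0.697 in cold root, against 13.7 FPKM in control root. Ca_14119 had most of its transcript in root, at 57.1 FPKM in desiccated, 51.96 in salt-stressed and 67.7 in cold root, against 232 FPKM in control root. In shoot it had 0.185 FPKM in desiccated, 1.15 in salt-stressed and 12.5 in cold shoot, against 12.7 FPKM in control shoot.

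**Figure D2:**
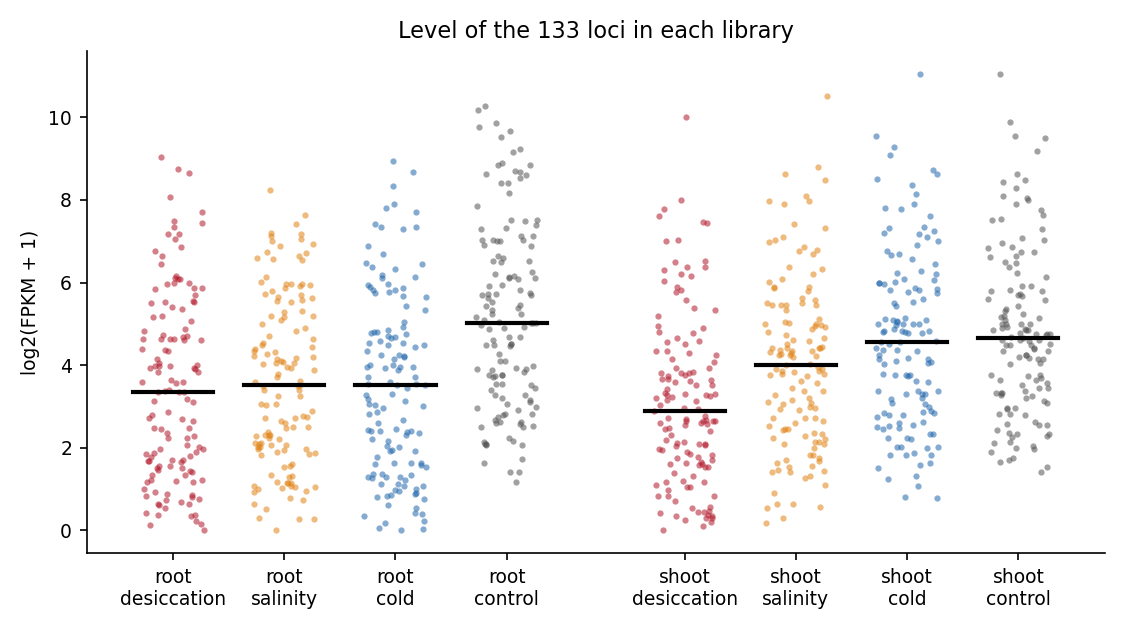
Level of each of the 133 loci, as log2(FPKM + 1), in the 8 libraries. Each point is a locus and the black bar is the median. In root the medians of the 3 stressed libraries (9.24, 10.4 and 10.4 FPKM) lie below the control (31.6 FPKM), whereas in shoot the medians are 6.43 FPKM under desiccation, 15.04 FPKM under salinity and 22.5 FPKM in cold, against 24.1 FPKM in the control.

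Under salinity many of the loci were also low, and the number was larger in root than in shoot, a difference that was not tested. In root 84 of the 133 loci (63.2%) lay at least 2-fold under the control, where 11.1% of the background did. In shoot 48 (36.1%) did, against 4.2% of the background, and 24 with a pseudocount of 5. The median change was -1.53 in root and -0.88 in shoot, and -0.02 and -0.01 in the background. Both tissues met the threshold at 35 loci (26.3%, background 0.993%), root alone at 49 (36.8%, background 10.1%), shoot alone at 13 (9.77%, background 3.21%), and neither tissue at 36 (27.1%, background 85.7%). Higher by at least 2-fold were 2 loci in root and 3 in shoot, where 12.6% and 5.81% of the background were. These counts use the control libraries that also chose the loci, so a control value that was high by itself would lower all 3 stresses at once, and these cannot be told apart.

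In cold, too, more of the loci were low in root than in shoot, as was the case in the background, and the difference between the tissues was not tested. In root 111 of the 133 loci (83.5%) lay at least 2-fold under the control in cold, where 7.4% of the background did, and 0 loci were as far above it (background 6.81%). In shoot 8 (6.02%) lay under it, against 0.375% of the background, and 4 to 12 did with pseudocounts of 5 and 0.1. The median change in cold was -1.45 in root and -0.18 in shoot, with -0.000857 and -0.0185 in the background. In shoot 44 loci were above their control under cold and 89 below it (66.9%, background 52.6%). Cold shoot was the highest of the 4 shoot libraries at 39 loci (29.3%, background 20.3%). The rule kept desiccated shoot from being the highest at any of the 133, but it was so at 31.1% of the background. The shares with cold shoot as the highest are therefore not directly comparable. Both tissues met the threshold under cold at 6 loci (4.51%, background 0.0972%). Ca_17476 was lower in cold in both tissues, with 0.339 FPKM in desiccated, 3.91 in salt-stressed and 0.178 in cold root, against 18.1 FPKM in control root, and 8.39 FPKM in desiccated, 9.29 in salt-stressed and 7.33 in cold shoot, against 19.4 FPKM in control shoot. Opposite changes of at least 2-fold in root and shoot were seen at 3 loci under salinity (2.26%, background 0.722%) and at 1 under cold (0.752%, background 0.188%).

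**Figure D3:**
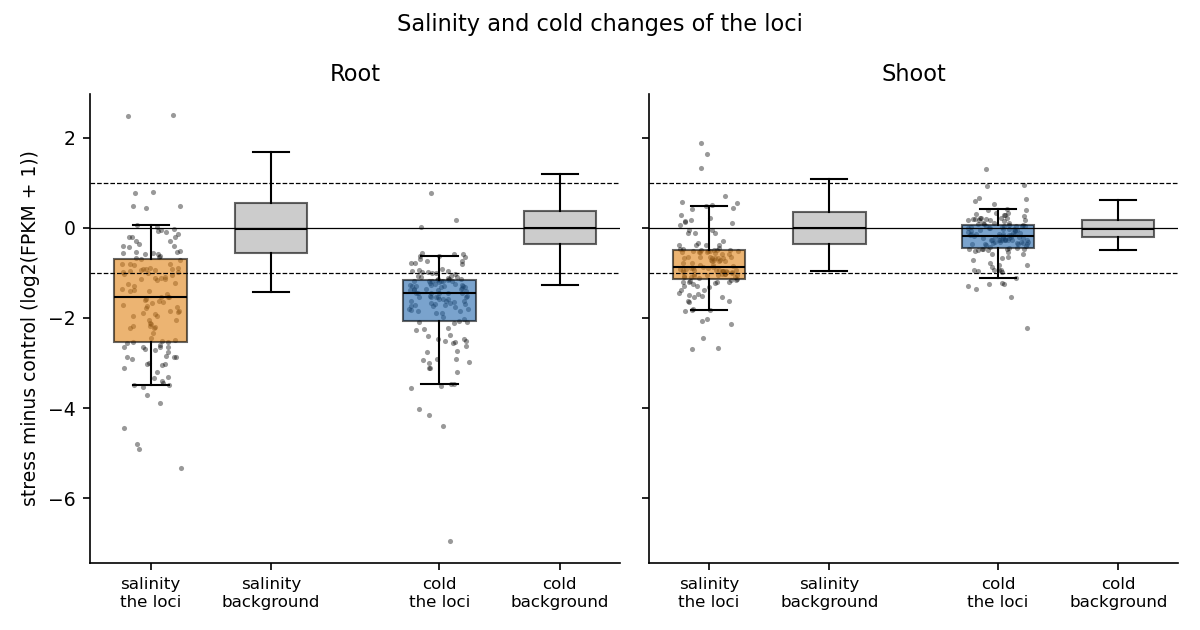
Stress minus control, in log2(FPKM + 1), under salinity and cold in root (left) and shoot (right). Coloured boxes with points are the 133 loci and grey boxes are the 14396 background loci. Boxes span the quartiles with the median as a line, whiskers reach the 5th and 95th percentiles, and dashed lines mark 2-fold. The root boxes of the 133 loci lie below -0.7 under both stresses, while the cold box in shoot straddles 0.

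A few combinations of the 4 changes under salinity and cold held most of the loci. The most frequent, with 43 loci (32.3%, background 2.85%), was at least 2-fold lower in root under both stresses and within 2-fold of the control in shoot under both. A further 26 loci (19.5%, background 0.264%) were lower in all of these but cold shoot. Another 22 (16.5%, background 2.88%) were lower in cold root alone. Counts over all 3 stresses include desiccation, for which the rule required every chosen locus to be lower in both tissues. In the background 6.5% met that part in root, 9.73% in shoot and 0.924% in both. The choice itself therefore widened the gaps to the background in the counts that follow, and the shared controls may have added to them. Under all 3 stresses 75 loci were at least 2-fold lower in root (56.4%, background 2.74%), and 5 were in shoot (3.76%, background 0.0625%). At 2 loci all 6 changes met the threshold, against 0.0139% of the background, which is the same 2 loci. Of these, Ca_12651 had 143 FPKM in desiccated, 146 in salt-stressed and 169.6 in cold root, against 386 FPKM in control root, and 89.6 FPKM in desiccated, 116 in salt-stressed and 99.8 in cold shoot, against 237 FPKM in control shoot. The other, Ca_12235, was weakly expressed, with 1.33 FPKM in desiccated, 1.101 in salt-stressed and 1.55 in cold root, against 5.13 FPKM in control root, and 2.04 FPKM in desiccated, 1.64 in salt-stressed and 4.02 in cold shoot, against 9.84 FPKM in control shoot.

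At 10 loci (7.52%) desiccation alone met the threshold in both tissues, where 81.6% of the background met it under neither salinity nor cold. Ca_09470 had the lowest shoot change among them, -3.57, with -1.30 in root, and was chosen after its values were seen. It had 11.1 FPKM in desiccated, 50.8 in salt-stressed and 16.9 in cold root, against 28.9 FPKM in control root, and 4.92 FPKM in desiccated, 48.03 in salt-stressed and 57.5 in cold shoot, against 69.2 FPKM in control shoot. In shoot the desiccated library stood far apart from the other 3, which lay within 1.5-fold of each other. In the remaining 9 of the 10 the lowest change was -1.89 in root and -1.87 in shoot. In the shoot alone, 82 loci (61.7%) were below the threshold under desiccation only, where 95.5% of the background was below it under neither salinity nor cold.

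The order of the 4 libraries differed between the tissues. In shoot the desiccated library was the lowest at 122 of the 133 loci, salinity at 9 and cold at 2. In the background these shares were 35.5% for desiccation, 18.1% for salinity and 22.3% for cold. Control shoot was the lowest at the other 24.0% of the background, which the rule did not allow among the 133. At 64 loci (48.1%) the shoot order was desiccation, salinity, cold and control from low to high, an order shared by 13.1% of the background. In root the lowest library was salinity at 51 loci, desiccation at 46 and cold at 36, and the control was the highest at 121. In the background these shares were 36.7% for salinity, 16.6% for desiccation, 19.9% for cold and 26.1% for the control as the highest. The rule kept control root from being the lowest at any of the 133, but it was the lowest at 26.8% of the background. The 38.3% of the 133 loci that were lowest under salinity in root therefore cannot be set directly against the background share. The lowest position of desiccation and the high position of the control were favoured by the rule.

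A comparison of desiccation with the other stresses leaves out the controls but keeps the desiccated libraries that chose the loci. In root, desiccation was at least 2-fold below cold at 5 loci and above it at 0, with 1.13% and 1.09% in the background, and the median difference was -0.00467. Among the 5, Ca_00938 had 1.25 FPKM in desiccated, 1.91 in salt-stressed and 14.4 in cold root, against 12.5 FPKM in control root. Ca_19206 and Ca_02169 were likewise at or above their control in cold root, with 4.31 and 8.74 FPKM, against 2.09 and 8.61 FPKM in control root. In shoot, desiccation was at least 2-fold below cold at 101 loci (background 9.4%) and below salinity at 48 (background 3.73%), and 0 loci were as far above cold (background 7.63%) or above salinity (background 2.39%). Desiccated root was below salt-stressed root at 29 loci and above it at 25, where 12.1% and 11.8% of the background were.

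Salinity set directly against cold involves neither the control nor the desiccated libraries. In root, salinity was at least 2-fold higher than cold at 27 of the 133 loci (20.3%, background 12.9%) and lower at 25 (18.8%, background 9.57%), with a median difference of 0.06. In shoot, it was higher at 6 (4.51%, background 3.95%) and lower at 29 (21.8%, background 3.51%), with a median difference of -0.60 against 0.01 in the background. Salt-stressed shoot was below cold shoot at 110 of the 133 loci (82.7%) and at 49.1% of the background. The loci thus lay below cold in salt-stressed shoot as a group, but were spread to both sides in root.

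**Figure D4:**
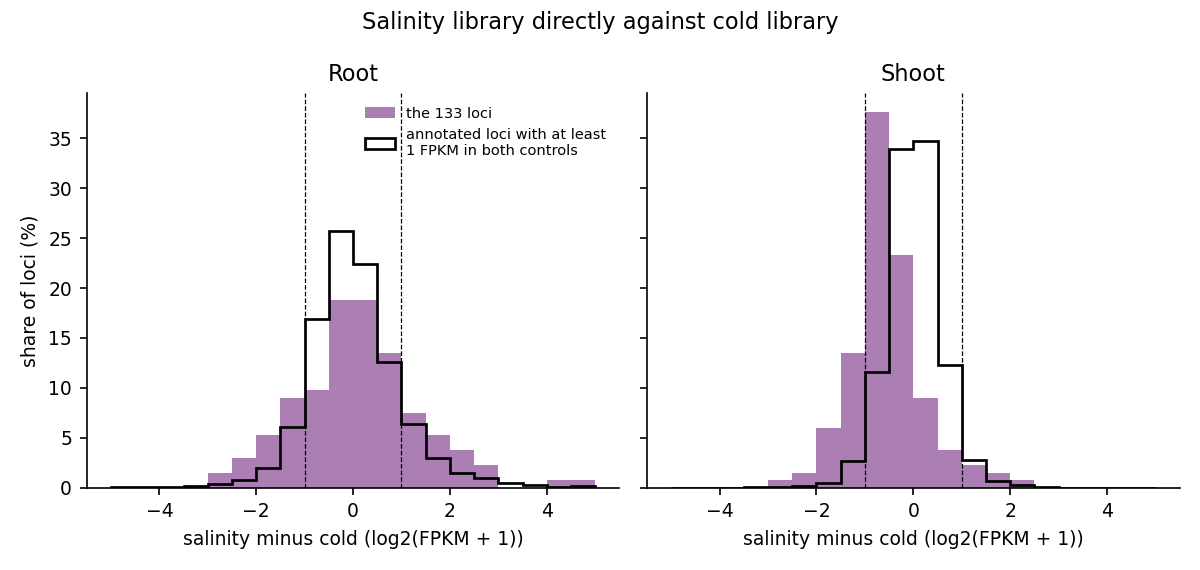
Difference between the salinity and the cold library, in log2(FPKM + 1), in root (left) and shoot (right), as the share of loci per bin of 0.5. Filled bars are the 133 loci and the outline is the 14396 background loci. Dashed lines mark 2-fold. The filled bars in shoot are shifted to the left, with a median of -0.60, and those in root are centred near 0.06.

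The largest 2 differences in root were towards salinity. Ca_17506 had 13.3 FPKM in desiccated, 299.6 in salt-stressed and 9.91 in cold root, against 51.9 FPKM in control root, a salinity minus cold difference of 4.78. In shoot all 3 stressed libraries of Ca_17506 were low, with 1.09 FPKM in desiccated, 2.97 in salt-stressed and 4.43 in cold shoot, against 24.5 FPKM in control shoot. Ca_00475 had 2.42 FPKM in desiccated, 59.6 in salt-stressed and 2.09 in cold root, against 9.83 FPKM in control root, a difference of 4.29. In shoot Ca_00475 had 1.62 FPKM in desiccated, 7.32 in salt-stressed and 4.66 in cold shoot, against 4.84 FPKM in control shoot. Both loci were above the control in salt-stressed root and below it in desiccated and cold root. Ca_07145, described above, had the next largest difference towards salinity in root, 2.60, and -2.30 in shoot.

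In the other direction, some loci were lowest by far in salt-stressed root. Ca_03914 had 132 FPKM in desiccated, 10.4 in salt-stressed and 79.9 in cold root, against 459 FPKM in control root, and its change under salinity, -5.34, was the lowest of the 133 in root. In shoot it had 127 FPKM in desiccated, 238 in salt-stressed and 425 in cold shoot, against 347 FPKM in control shoot. Ca_01052 had 56.5 FPKM in desiccated, 12.8 in salt-stressed and 88.2 in cold root, against 139 FPKM in control root. Its desiccated shoot library stood apart instead, with 0.471 FPKM in desiccated, 6.91 in salt-stressed and 12.8 in cold shoot, against 17.3 FPKM in control shoot. Ca_07136 was low in all 3 stressed root libraries, with 7.82 FPKM in desiccated, 3.71 in salt-stressed and 6.297 in cold root, against 129 FPKM in control root, and in shoot was level with its control in cold, with 2.01 FPKM in desiccated, 3.41 in salt-stressed and 5.94 in cold shoot, against 5.92 FPKM in control shoot.

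In shoot the leading differences between salinity and cold were of either sign, from -2.64 at Ca_14119 to 2.03 at Ca_15805, both described above. Ca_04289 had 2.88 FPKM in desiccated, 25.4 in salt-stressed and 6.31 in cold shoot, against 7.5 FPKM in control shoot, and 1.73 FPKM in desiccated, 8.54 in salt-stressed and 2.06 in cold root, against 6.04 FPKM in control root. It was above its control under salinity in both tissues, by 0.44 in root and 1.63 in shoot. Ca_11854 was the 1 locus at least 2-fold above its control in cold shoot, where 1.88% of the background was, with 2.35 FPKM in desiccated, 6.79 in salt-stressed and 30.7 in cold shoot, against 11.9 FPKM in control shoot. In root it was low under each stress, with 1.83 FPKM in desiccated, 1.19 in salt-stressed and 1.18 in cold root, against 6.87 FPKM in control root. Ca_06948 was at least 2-fold above its control in salt-stressed shoot alone, with 0.147 FPKM in desiccated, 8.72 in salt-stressed and 2.001 in cold shoot, against 1.66 FPKM in control shoot. In root it had 0.265 FPKM in desiccated and 0.557 FPKM in salt-stressed root, was listed at 0 in cold root and had 3.28 FPKM in control root. Ca_00001, named for its mean change under salinity, stayed within 1.5-fold of its control under salinity and cold in shoot. There it had 22.8 FPKM in desiccated, 73.1 in salt-stressed and 56.4 in cold shoot, against 54.96 FPKM in control shoot. In root it had 62.3 FPKM in desiccated, 131 in salt-stressed and 58.4 in cold root, against 129 FPKM in control root, a change of -1.13 in cold.

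Limma was fitted to the 4 salinity and cold libraries, with tissue and treatment as additive terms, over the 21907 loci averaging 1 FPKM or more, 132 of the 133 among them. The locus left out by that filter was Ca_17157, which was listed at 0 in desiccated and salt-stressed root. For salinity against cold, 0 loci passed an adjusted p of 0.05 in either direction (0.0% of all loci tested), and the lowest limma adjusted p among the 132 was 0.427. At an unadjusted p under 0.05 stood 21 of the 132 (15.9%) and 8.98% of all loci tested. The fit has 1 residual degree of freedom, and it counts any difference between the responses of root and shoot as error.

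The tissue term of the same fit passed at part of the loci. In the salinity and cold libraries, 13 of the 132 (9.85%) were higher in root by the limma test and 39 (29.5%) were higher in shoot, where 9.39% and 12.6% of all loci tested were. All 13 kept their direction in 4 of 4 treatments, as did 30 of the 39. The salinity and cold libraries made these calls, so only the direction in the control and desiccated libraries is separate from them. In the controls 33 of the 39 were higher in shoot. With all 8 libraries in the fit 25 were higher in root and 35 in shoot, and without the filter on low values 5 were higher in root and 9 in shoot. The median difference between root and shoot over the 133 loci followed the treatment. It was 0.39 in desiccated tissue, -0.47 under salinity and -1.04 in cold, against 0.37 in the controls, while the background medians lay between -0.01 and 0.09. At least 2-fold lower in root than in shoot were 30 loci under desiccation (background 16.3%), 52 under salinity (background 16.4%) and 67 in cold (background 15.4%), against 29 in the controls (background 16.5%). As far higher in root were 46 loci under desiccation, 31 under salinity and 20 in cold, against 49 in the controls. The background share was not counted for that direction, so these counts cannot be set against it. At any size of difference, 55 of the 133 (41.4%) were lower in root than in shoot in the controls, against 50.3% of the background. Under desiccation 51 (38.3%) were, against 46.3% of the background. More of the 133 loci were thus higher in root than in shoot in the control and desiccated libraries, which the main limma fit left out.

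Among the loci that passed, those higher in shoot by the widest margin were Ca_07337, Ca_10522 and Ca_02867. Ca_07337 had 1.25 FPKM in desiccated, 2.91 in salt-stressed and 1.55 in cold root, against 5.38 FPKM in control root, and 91.2 FPKM in desiccated, 171 in salt-stressed and 282 in cold shoot, against 274 FPKM in control shoot. Its root minus shoot difference in the limma fit was -6.12 (SE 0.44, limma adjusted p = 0.00175). Ca_10522 had 0.552 FPKM in desiccated, 1.55 in salt-stressed and 0.875 in cold root, against 4.92 FPKM in control root, and 57.9 FPKM in desiccated, 82.6 in salt-stressed and 159 in cold shoot, against 155 FPKM in control shoot. Its difference was -5.72 (SE 0.45, limma adjusted p = 0.00204), and that of Ca_02867 was -5.58 (SE 0.51, limma adjusted p = 0.00295). Each of these was higher in shoot in 4 of 4 treatments, of which salinity and cold made the call. In each the shoot order from low to high was desiccation, salinity and then cold and control in either order. Ca_10829 and Ca_18900, among the highest in the shoot control, had the same shoot order, with 129 FPKM in desiccated, 249.6 in salt-stressed and 360.0 in cold shoot, against 397 FPKM in control shoot for the first and 255 FPKM in desiccated, 359.7 in salt-stressed and 545 in cold shoot, against 743 FPKM in control shoot for the second.

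Among the loci that passed, those higher in root by the widest margin were Ca_14119, whose limma difference was 3.48 (SE 0.61, limma adjusted p = 0.017), Ca_18265 and Ca_01411. Ca_18265 had 6.301 FPKM in desiccated, 44.8 in salt-stressed and 10.4 in cold root, against 31.6 FPKM in control root, and 0.385 FPKM in desiccated, 2.08 in salt-stressed and 0.738 in cold shoot, against 2.35 FPKM in control shoot. Its difference was 3.30 (SE 0.44, limma adjusted p = 0.00795). Ca_01411 had 398 FPKM in desiccated, 105 in salt-stressed and 405 in cold root, against 868 FPKM in control root, and 4.44 FPKM in desiccated, 12.8 in salt-stressed and 32.7 in cold shoot, against 25.8 FPKM in control shoot. Its difference was 3.26 (SE 0.36, limma adjusted p = 0.00469). Ca_01412, the locus with the next ID number, had nearly the same profile, with 527 FPKM in desiccated, 144 in salt-stressed and 491 in cold root, against 1165 FPKM in control root, and 5.22 FPKM in desiccated, 20.4 in salt-stressed and 52.7 in cold shoot, against 33.2 FPKM in control shoot. Whether reads were shared between them was not tested. The other pair with consecutive ID numbers was Ca_12650 and Ca_12651.

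Among the most abundant loci, Ca_06126 had 162 FPKM in desiccated, 139 in salt-stressed and 156 in cold root, against 816 FPKM in control root, and 177 FPKM in desiccated, 392 in salt-stressed and 619.6 in cold shoot, against 726 FPKM in control shoot. All 3 stressed root libraries were close together, whereas the shoot libraries formed a graded series. Ca_20296 had 432 FPKM in desiccated, 197 in salt-stressed and 323 in cold root, against 923 FPKM in control root, and 217 FPKM in desiccated, 249 in salt-stressed and 328 in cold shoot, against 579 FPKM in control shoot, and was lowest under salinity in root. The ID Ca_03681 stood on a pair of loci that both met the rule, at 177 and 56.96 FPKM in desiccated root, against 1242 and 405 FPKM in control root, and at 193 and 54.1 FPKM in desiccated shoot, against 954 and 266 FPKM in control shoot. In all, 7 of the 133 loci carried an ID found on more than 1 locus and 3 carried several IDs, and the counting of reads at these is uncertain.

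The median change in salt-stressed root was lower among the abundant loci than among the weakly expressed ones, a difference that was not tested. The scale of log2(FPKM + 1) understates changes of weakly expressed loci, which cannot be told apart from a smaller change here. In cold root the medians of these classes were close. Among the 56 with at least 20 FPKM in both controls, the median change was -1.87 in salt-stressed root, -1.53 in cold root, -0.85 in salt-stressed shoot and -0.15 in cold shoot. Among the 30 under 5 FPKM in 1 control or both, these medians were -1.12, -1.48, -0.91 and -0.27. Across the 133 loci, which cannot count as replicates, Pearson's r between the root and shoot changes was 0.101 under salinity and 0.0621 under cold, with Spearman's rho of 0.21 and 0.0365. In the background r was 0.337 and 0.212, with rho of 0.332 and 0.0468. The root and shoot comparisons share no library, but the rule cut the range of the 133 loci.

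**Figure D5:**
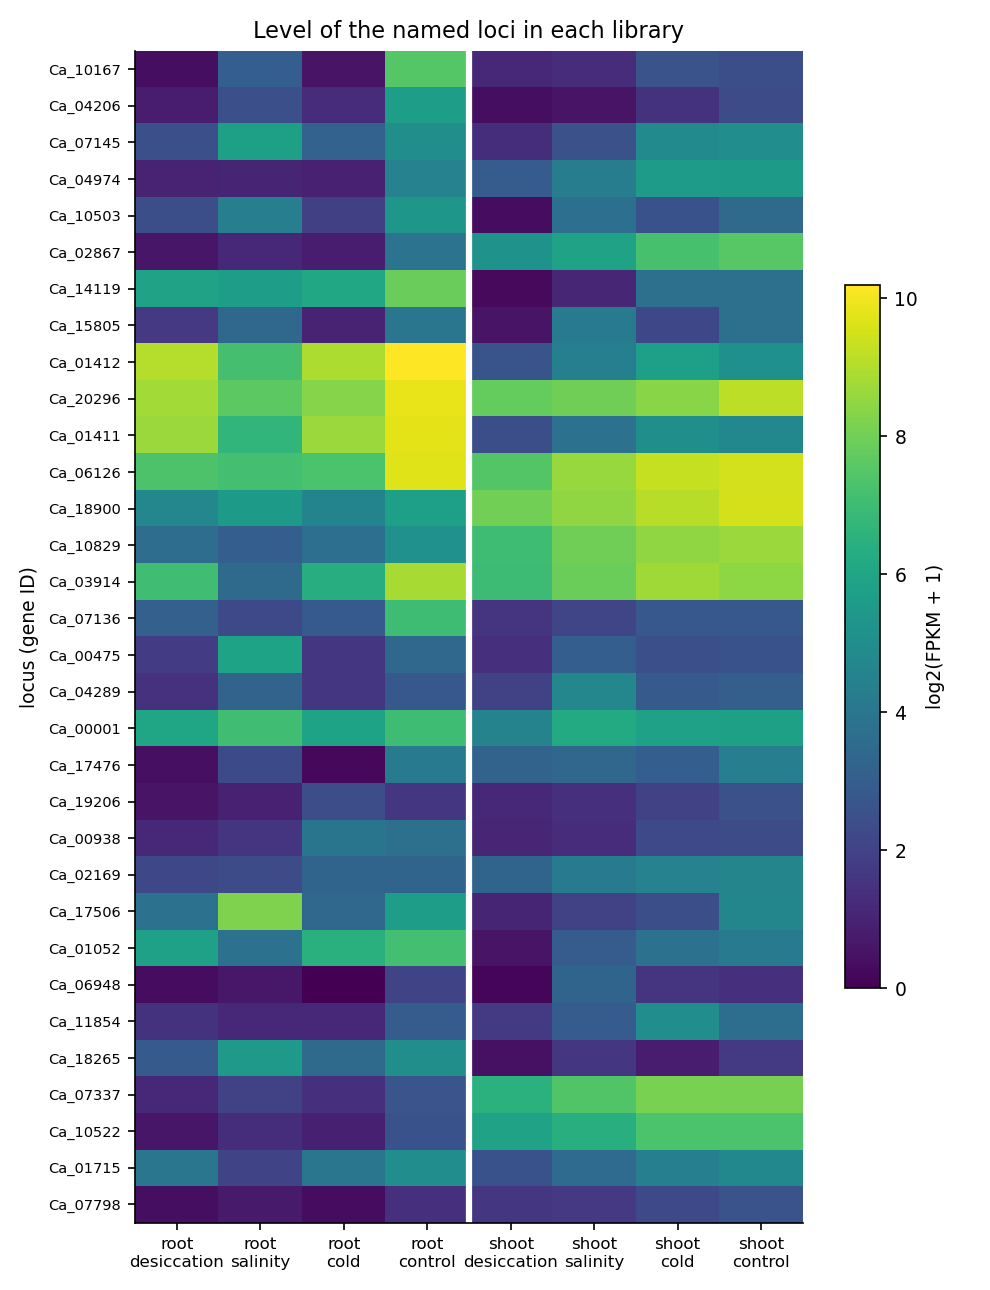
Level, as log2(FPKM + 1) on the colour scale, of the 32 named loci (rows, in the order in which the naming rule took them) in the 8 libraries (columns). Yellow is high and dark blue is low. In root the control column is the brightest for most rows, and in shoot the cold column resembles the control column.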

How the data were processed

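Messenger RNA was sequenced from 4 root and 4 shoot samples, grouped by the sample titles. The authors deposited FPKM per locus and library. Reads were filtered with NGS QC Toolkit, mapped to the annotated chickpea genome with TopHat and quantified with Cufflinks, per the labels' design text. Tool versions and the genome build were not given in the sources used here. Since FPKM is relative to the library total, very abundant transcripts lower all others. Fragment counts were not recovered, so no counting interval is given.

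Changes are differences of log2(FPKM + 1), a scale that understates changes of weakly expressed loci. A locus counts as lower or higher at 2-fold (a change of 1). An exact 0 can be a failed estimate and is written as listed at 0. The background is the 14396 annotated loci with at least 1 FPKM in both controls. In R 4.3.3, limma 3.58.1 with a variance trend was fitted to all loci averaging 1 FPKM or more, with Benjamini-Hochberg adjusted p-values. They measure the spread among these libraries alone, which is the difference between the root and shoot responses, moderated by that of other loci. That difference may be biological or technical, and no spread between replicates enters it. Both steps were tested on simulated data. For limma these had independent noise in each library, as the fit assumes, so they cannot show that its p-values hold in the real libraries. Tables were made with pandas 2.3.3 and numpy 2.4.6 in Python 3.11.15, and figures with matplotlib 3.10.9.

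The members, the comparisons and the naming rule were chosen with earlier results of these data known. Among loci with 1 ID on 1 locus, the rule named the 8 with the lowest mean desiccation change and the 4 highest in each control. It also named the 3 lowest and 3 highest by mean salinity change, by mean cold change, by salinity minus cold in each tissue and, among loci that passed it, by the limma tissue test, and the loci nearest the threshold. Ca_12235, Ca_12651, Ca_09470, Ca_12650, Ca_13177, Ca_03681, Ca_17157 and the locus with the IDs Ca_04529 and Ca_04530 were chosen after their values were seen. Alternatives were other pseudocounts, thresholds, filters, scalings and sets of libraries.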

Additional observations from a re-analysis of the deposited data

Results flagged for a closer look

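Under salinity 3 of the 133 loci were at least 2-fold changed in opposite directions in root and shoot, where 0.722% of the background was, and under cold 1 was, against 0.188% of the background. The difference between the tissues was not tested, since no tissue and treatment has a second library. Ca_17506 had a change of 2.51 in salt-stressed root and -2.69 in salt-stressed shoot. Ca_06948 had -1.46 in root and 1.87 in shoot under salinity, and it stood below 10 FPKM in all libraries. Ca_13177 had -1.104 in root and 1.32 in shoot under salinity, with 58.6 FPKM in salt-stressed shoot, against 22.8 FPKM in control shoot. Ca_11854 had -1.85 in cold root and 1.299 in cold shoot.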

How the results depend on the processing

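With 1 library per tissue and treatment there were no replicate numbers to pair, and the limma fit already set root against shoot within each treatment. Of the settings tried, the 4-fold threshold moved the member count most: 10 loci met the rule with it, while 281 loci met the rule with a pseudocount of 0.1 (all 133 among them), 51 with a pseudocount of 5, 157 with quantile normalization and 135 with median-ratio scaling, which kept 129 and 130 of the 133. With the 133 loci fixed, a 4-fold threshold left 48 lower in salt-stressed root, 6 in salt-stressed shoot, 35 in cold root and 1 in cold shoot, and 0 higher in salt-stressed or cold shoot. Salinity against cold then had 10 higher and 6 lower in root, and 1 higher and 3 lower in shoot. A pseudocount of 5 left 24 lower in salt-stressed shoot and 4 in cold shoot, and 16 higher and 15 lower in root and 2 higher and 17 lower in shoot for salinity against cold. A pseudocount of 0.1 gave 12 lower and 2 higher in cold shoot and 1 higher in cold root. Quantile normalization gave 2 higher in cold shoot. A minimum of 5 FPKM in both controls, which kept 103 loci, left 1 higher in salt-stressed root. No background shares are given for these alternatives, so whether the loci still exceed the background under them was not tested. The remaining counts moved by no more than 1.5 times, and no change of a named locus that met the threshold was reversed: of 768 changes of named loci against the control under other scales, 708 stayed on their side of the 2-fold threshold, 46 lost it and 14 gained it.

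In the limma tissue test, fitting all loci above 0 left 5 higher in root and 9 higher in shoot. All 8 libraries gave 25 higher in root, and leaving out 1 salinity or cold library from that fit gave 24 to 27 (26 without root salinity, 24 without shoot salinity) higher in root and 23 to 27 higher in shoot. Of 150 limma tissue differences of named loci under the alternatives, 116 kept an adjusted p of 0.05 or less and 34 lost it. Salinity against cold passed at 0 of these loci in all 11 fits. Of the named loci, Ca_06948, Ca_11854, Ca_06126 and Ca_03914 lost the tissue call in 6 or 7 of 10 alternatives, and the 3 loci highest in shoot kept it in all 10, with limma adjusted p from 4.12e-05 to 0.0494. Values near 1 FPKM may rest on few fragments, whose number was not recovered.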
